A study of Caenorhabditis elegans with 2 samples.

Results

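Ribosomal protein genes were taken as the protein-coding genes whose symbol in the Ensembl annotation of WBcel235 starts with rpl-, rps- or rla-. They numbered 81 of the 19973 protein-coding genes on the 6 nuclear chromosomes, with 50 for the large ribosomal subunit (rpl- and rla-) and 31 for the small subunit (rps-). The question asked of them was where the nuclear hormone receptor NHR-237 was found at their promoters in chromatin immunoprecipitation with sequencing (ChIP-seq), which recovers the DNA that lies close to a protein in fixed chromatin. The chromatin came from whole Caenorhabditis elegans larvae of the L2 stage, both sexes pooled, in strain OP228, genotype unc-119(ed3) III; wgIs228, which carries an insertion that expresses eGFP-tagged nhr-237. Both libraries, biological replicates 1 and 2, belong to this 1 group, so no condition was compared with another, and both carry the transgene and the unc-119 mutation. The sample descriptions speak of ChIP-seq against eGFP-nhr-237, the tagged protein. The labels name nhr-237 as the target of the antibody and give a size range of 150 to 350 bp. They do not say how strongly or in which cells the transgene is expressed, and in whole larvae the cells behind a region are unknown. A library from untagged larvae was not analysed here, and what the control of the region calls was is not given in the sources used here.

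Each ribosome needs 1 copy of most ribosomal proteins in its small subunit, which decodes the messenger RNA, and in its large subunit, which joins the amino acids. Growing larvae therefore make these proteins in large and matched amounts, from genes that are scattered over the chromosomes and mostly present once. In C. elegans many of these transcripts are trans-spliced, so the 5′ end of a gene model is often the splice acceptor and not the site where transcription starts. Nuclear hormone receptors are DNA-binding transcription factors, and the family is much expanded in nematodes.

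The authors deposited 4 lists of regions in ce11 coordinates that were used. The lists of replicate 1 and replicate 2 hold 30000 regions each, background included by design. The pooled list, from both libraries together, holds 6542 regions and by its name also includes background. A place in the pooled list alone is therefore not a call that passed the IDR threshold. The IDR list holds 350. IDR, the irreproducible discovery rate, measures how well replicates rank the same regions, and by its name the list was thresholded on it. Each region has a summit and a signal, the authors' value in units that belong to its own list. A gene was counted for a list when a summit lay within 1000 bp of its 5′ end, on either side, and its highest such region was described. The depth of the libraries is unknown from these files, and no sample has an error on its signal, so the spread is that between genes and between the 2 replicates.

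The sequence under high summits is shown first, since the results below turn on these promoters. The windows are those of the 10 members highest in the IDR list, except rpl-24.2 and rps-20, which are not printed here, and rpl-12, whose window runs into a gene model. The window of rpl-11.2 is added for its paralog. Each line is 151 bases of the reference genome centred on the pooled summit, read 5′ to 3′ on the strand of the ribosomal protein gene, in windows that overlap no protein-coding gene model. Capitals mark 3 hexamers, TACGGT as well as GAGTGT and also GGAGCG, or their reverse complements. They were searched on both strands, are described further on, and were picked after these windows had been looked at.
rpl-3: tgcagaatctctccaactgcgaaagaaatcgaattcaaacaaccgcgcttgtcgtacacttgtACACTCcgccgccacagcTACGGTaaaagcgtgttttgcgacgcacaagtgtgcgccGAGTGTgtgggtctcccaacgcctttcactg
rpl-20: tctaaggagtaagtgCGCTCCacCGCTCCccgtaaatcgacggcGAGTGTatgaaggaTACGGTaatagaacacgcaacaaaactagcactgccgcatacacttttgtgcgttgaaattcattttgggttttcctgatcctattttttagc
rpl-35: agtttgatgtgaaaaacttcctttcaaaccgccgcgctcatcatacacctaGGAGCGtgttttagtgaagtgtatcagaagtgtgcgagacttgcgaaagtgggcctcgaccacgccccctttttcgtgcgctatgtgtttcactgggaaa
rpl-15: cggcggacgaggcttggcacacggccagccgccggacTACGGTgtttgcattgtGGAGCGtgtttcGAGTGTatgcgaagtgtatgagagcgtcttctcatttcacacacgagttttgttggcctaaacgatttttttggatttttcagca
rps-1: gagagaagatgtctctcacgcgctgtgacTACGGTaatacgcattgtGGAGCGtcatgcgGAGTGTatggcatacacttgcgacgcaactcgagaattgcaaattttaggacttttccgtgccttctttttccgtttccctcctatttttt
rps-12: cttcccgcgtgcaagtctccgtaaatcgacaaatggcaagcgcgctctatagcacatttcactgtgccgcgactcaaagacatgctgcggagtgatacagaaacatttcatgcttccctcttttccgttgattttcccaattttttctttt
rps-28: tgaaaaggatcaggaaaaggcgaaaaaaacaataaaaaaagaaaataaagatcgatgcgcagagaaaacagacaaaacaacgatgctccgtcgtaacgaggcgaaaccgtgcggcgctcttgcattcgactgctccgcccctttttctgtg
rpl-11.2: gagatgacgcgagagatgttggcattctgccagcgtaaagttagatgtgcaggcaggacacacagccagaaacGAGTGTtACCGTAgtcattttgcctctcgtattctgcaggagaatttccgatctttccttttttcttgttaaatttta
The windows lie at chrIII:3867486-3867636 for rpl-3, chrIV:4749989-4750139 for rpl-20, chrIII:7854619-7854769 for rpl-35, chrIV:654833-654983 for rpl-15, chrIII:4475606-4475756 for rps-1, chrIII:5679071-5679221 for rps-12, chrIV:1659144-1659294 for rps-28 and chrX:2242895-2243045 for rpl-11.2. The genes rpl-20, rpl-15 and rpl-11.2 lie on the minus strand and the others on the plus strand. All 3 hexamers were present in the windows of rpl-20, rpl-15 and rps-1, and 2 of them in those of rpl-3 and rpl-11.2. The window of rpl-35 held 1, and those of rps-12 and rps-28 held none. Of all 24 distinct member IDR windows 15 held at least 1.

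Another 2 windows, from members outside the IDR list, are shown. The first is the shared promoter of rps-30 and rpl-39 at chrV:7776270-7776420, the highest pooled region at a member outside the IDR list. The second is chrV:3586278-3586428, which is 289 bp upstream of rpl-11.1, the paralog of rpl-11.2 that had no pooled region. It was placed at the median upstream distance of the members' pooled summits. The highest summits of rpl-11.1 in replicates 1 and 2 lay elsewhere, 617 and 762 bp upstream.
rps-30: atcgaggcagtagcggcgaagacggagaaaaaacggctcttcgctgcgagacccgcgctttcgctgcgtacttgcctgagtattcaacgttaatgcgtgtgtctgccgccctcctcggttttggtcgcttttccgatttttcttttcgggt
rpl-11.1: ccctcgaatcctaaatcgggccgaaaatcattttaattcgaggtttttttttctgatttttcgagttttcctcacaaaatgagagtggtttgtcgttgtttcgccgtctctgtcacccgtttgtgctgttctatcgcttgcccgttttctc
Neither window held any of the 3 hexamers, but these 2 windows do not stand for their groups. At least 1 hexamer was in 12 of 27 windows at upstream summits of members in the pooled list alone. The same was so in 5 of 19 windows of members without a pooled region.

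Regions of the IDR list lay at 25 of the 81 ribosomal protein genes, 30.9%, beside 1.72% of all protein-coding genes. Counting upstream summits alone gave 23 members, 28.4%, beside 1.55%. The pooled list reached 62 members, 76.5%, beside 15.8% of all genes, and with an upstream summit 54 members, 66.7%, beside 10.8%. The remaining 19 members had no pooled region within reach. When each summit counted only for its closest start, the IDR share was 17.28%, beside 1.14% of all genes, and the pooled share 41.98%, beside 13%. The exact 95% binomial interval was 21.1 to 42.1% for the IDR share and 65.8 to 85.2% for the pooled share. These intervals treat genes as independent, which they are not where a pair of genes shares a region, and the members and their rule were chosen with results of these data known, so no test is given.

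The same picture was seen in each library by itself. Among the 350 regions of highest signal in replicate 1, summits lay at 23 members, 28.4%, beside 1.65% of all genes. In replicate 2 they lay at 24 members, 29.6%, beside 1.54%. Regions among the 350 highest of both replicates, with summits within 150 bp of each other, lay at 16 members, 19.8%, beside 0.906% of all genes. The whole replicate lists are much less selective: they reached 75 members in replicate 1, 92.6%, beside 50.3%, and 73 in replicate 2, 90.1%, beside 49.3%. A place in a whole replicate list therefore says little of a gene.

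**Figure D1:**
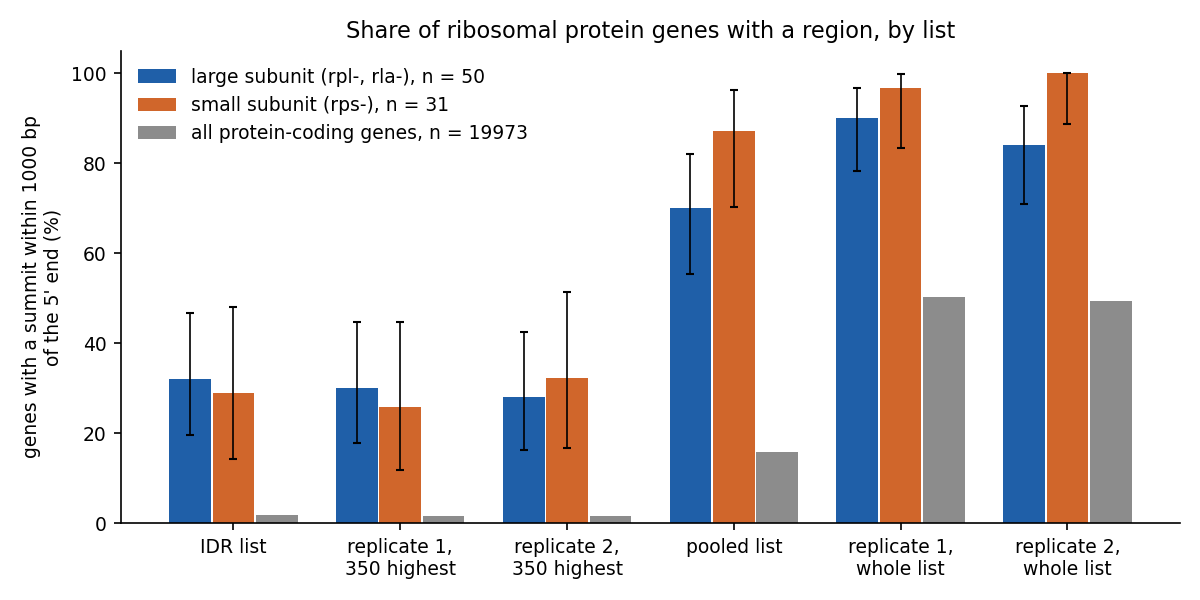
Share of ribosomal protein genes, as a percentage, with a summit within 1000 bp of the 5′ end, for large subunit genes (n = 50), small subunit genes (n = 31) and all protein-coding genes (n = 19973), in 6 selections of regions. Bars are shares and lines are exact 95% binomial intervals. The intervals of both subunits overlap in every selection.

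By subunit, 16 of 50 large subunit genes had an IDR region, 32% with an interval of 19.5 to 46.7%, and 9 of 31 small subunit genes, 29.0% with an interval of 14.2 to 48.0%. In the pooled list the shares were 35 of 50 (70%, interval 55.4 to 82.1%) and 27 of 31 (87.1%, interval 70.2 to 96.4%). When an upstream summit was asked for, 27 of 50 large subunit genes (54%, interval 39.3 to 68.2%) and again 27 of 31 small subunit genes qualified. The intervals of both subunits therefore overlapped widely in the IDR list and for either side in the pooled list, while for upstream pooled summits they did not overlap. That last contrast was not tested, since genes are not replicates. The 4 small subunit genes with no pooled region were rps-7, rps-8, rps-16 and rps-24.

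The 5 members with the highest pooled signal all encode large subunit proteins. At rpl-3, whose protein reaches towards the peptidyl transferase centre where amino acids are joined, the signal was 294.9 in the pooled and IDR lists, rank 9 of 350. The matching regions had a signal of 186.4 in replicate 1, rank 11, and 109.6 in replicate 2, rank 6. The summit, at position 3867561 of chromosome III, lay 293 bp upstream of the 5′ end of rpl-3 and within reach of no other protein-coding start.

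The region of rpl-20 had a signal of 199.5, rank 17, with 119.3 in replicate 1 and 74.95 in replicate 2. Its summit lay 286 bp upstream of rpl-20 and 176 bp upstream of Y17G9B.5, which is transcribed the other way. At rpl-35, whose protein sits at the exit of the peptide tunnel, the signal was 195.9, rank 19, with 138.2 in replicate 1 and 60.6 in replicate 2, and the summit lay 440 bp upstream. The order of rpl-20 and rpl-35 thus differed between the replicates, and these neighbours are not separated beyond that spread.

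At rpl-15 the signal was 136, rank 28, with 89.75 in replicate 1 and 47.23 in replicate 2, and the summit lay 332 bp upstream. At rpl-12, whose protein forms the base of the stalk to which translation factors bind, the signal was 116, rank 33, with 77.34 and 36.21 in replicates 1 and 2. The summit lay only 37 bp upstream of rpl-12, and 356 bp upstream of the divergent gene lin-54, which encodes a DNA-binding subunit of the DRM complex. All 5 of these regions were among the 50 highest in both replicate lists.

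The highest small subunit gene was rps-1, with a signal of 113.9, rank 34, and 65.39 in replicate 1 and 46.54 in replicate 2. Its summit, at position 4475681 of chromosome III, lay upstream of rps-1 and 531 bp upstream of ifet-1, a translational repressor on the other strand. Next came rps-12 with 102.2, rank 47 (68.82 in replicate 1 and 30.91 in replicate 2), whose summit lay 152 bp upstream. That summit was slightly nearer, at 141 bp, to the divergent gene ska-3, and the snoRNA gene F54E7.10 lay within 250 bp of it. The next small subunit genes were rps-28 with 90.58 and rps-20 with 88.34, ranks 64 and 71. At rps-28 the replicate signals were 53.11 and 38.55, and at rps-20 they were 51.86 and 31.85, so that the order of these 2 was kept in both replicates but by little in replicate 1. The summit of rps-28 lay 472 bp upstream and that of rps-20 253 bp upstream. The summit of rps-20 was closer, at 144 bp, to the divergent gene ekl-4.

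Between rps-12 and rps-28 in rank stood rpl-24.2, with a signal of 95.11, rank 56, and 60.4 in replicate 1 and 34.86 in replicate 2. Its summit lay 160 bp upstream and inside the gene model of C03D6.1. The other 15 IDR members had signals from 88.12 (rpl-7A) down to 42.5 (rpl-33), just above the lowest signal of the whole list, 41.9. Over the 25 members the median signal was 67.4, with quartiles of 53.3 and 102, beside a median of 59.0 over all 343 genes with an IDR region. The median was 74.6 for the 16 large and 67.4 for the 9 small subunit genes, a difference well inside the quartiles of either.

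**Figure D2:**
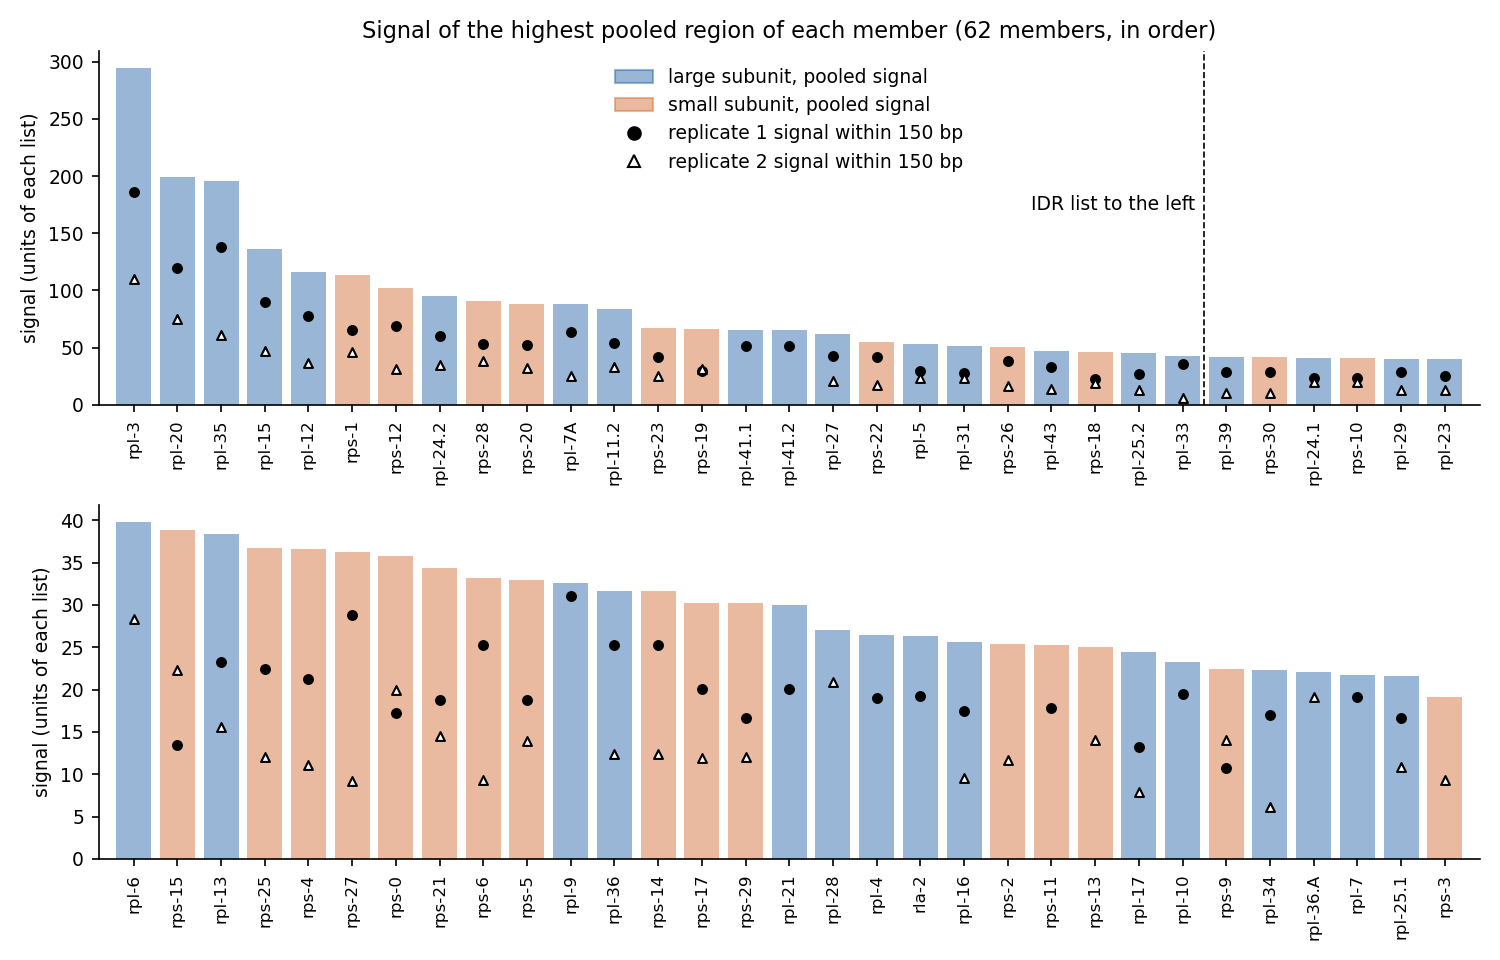
Signal of the highest pooled region of the 62 members with one, in order, in the units of each list; bars are the pooled signal by subunit, and points are the replicate signals within 150 bp of the pooled summit. The upper panel runs from rpl-3 at 294.9 to rpl-23 at 40.13, the dashed line marks the end of the IDR list, and the lower panel, on its own scale, runs from rpl-6 at 39.81 to rps-3 at 19.13.

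The IDR list is a set of regions of high pooled signal, so that members fall off at its end without a gap. The last 3 members inside were rps-18 (46.39), rpl-25.2 (44.88) and rpl-33 (42.5). Just outside came 5 members with a pooled but no IDR region. The divergent pair rps-30 and rpl-39 shared a region of 41.44, rank 363, with its summit 233 bp upstream of rps-30 and 266 bp upstream of rpl-39. The human counterpart of RPS-30 is made as a fusion to a ubiquitin-like domain, and RPL-39 lines the peptide tunnel. The pair rps-10 and rpl-24.1 shared a region of 40.89, rank 373, 396 bp and 214 bp upstream, and rpl-29 followed with 40.27, rank 380, 258 bp upstream. In the replicate lists the shared region of rps-30 and rpl-39 had 28.78 and 10.64, that of rps-10 and rpl-24.1 had 23.04 and 19.45, and that of rpl-29 had 28.44 and 12.55. These replicate values are close to those of the last IDR members.

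Over all 62 members with a pooled region the median signal was 40.0, with quartiles of 30.05 and 64.4, beside 23.0 over the 3157 genes with one, and the median rank was 385.5 beside 2595. Large subunit genes had a median of 40.9 and small subunit genes one of 36.6, within each other's quartiles. In replicate 1 the members' median was 22.4 beside 11.5 over all genes with a region, and in replicate 2 it was 12.4 beside 7.67. The 37 members that were in the pooled list alone comprised 19 large and 18 small subunit genes.

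Of the 19 members without a pooled region, 18 had a region in at least 1 replicate list. Their signals ranged from 7.908 (rps-8) to 18.24 (rps-24) in replicate 1. Only rps-24 and rpl-22 (15.94) were above the upper quartile there over all genes with a region, 14.5. In replicate 2 the signals ranged from 5.187 (rpl-42) to 9.974 (rpl-14), and only rpl-14 was above the upper quartile, 9.93. The member without any region was rpl-37, for a large subunit protein, which had no summit within 1000 bp in any of the 4 lists. Its nearest summit lay 1308 bp away in replicate 1, 1277 bp in replicate 2 and 9026 bp in the pooled list. This says that no region was called, not that the receptor was absent.

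The stalk of the large subunit, which binds translation factors, had little signal beyond rpl-12. For rla-0, the protein P0 that carries the stalk, there was a single region, in replicate 1, with a signal of 9.124, rank 22262 of 30000. For rla-1 the highest signals were 8.885 in replicate 1 and 8.099 in replicate 2, with summits 581 bp upstream and 674 bp downstream. Another replicate 2 summit lay 74 bp from the 5′ end. The summits were thus at different places in the replicates. At rla-2 the pooled signal was 26.39, but its summit lay 740 bp downstream of the 5′ end, inside rla-2, and 133 bp upstream of agt-1. The gene rpl-1 had a region in replicate 2 alone, with 9.352, and none in the pooled list, where the nearest summit was 1277 bp away.

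Members paired by symbol differed within pairs. Whether each pair encodes copies of the same protein was not checked. The 2 genes for the protein that joins 5S ribosomal RNA with RPL-5 were far apart: rpl-11.2, on X, had a signal of 83.99, rank 76, with its summit 352 bp upstream, and 54.26 and 32.73 in replicates 1 and 2. Its paralog rpl-11.1, on V, had no pooled region within 6411 bp, and 11.55 and 5.628 in the replicate lists. No replicate value of rpl-11.1 came near the lower of those of rpl-11.2. Further, rpl-5 itself was in the IDR list with 53.29.

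At rpl-25.2 the signal was 44.88, 110 bp upstream. At rpl-25.1 it was 21.59, 165 bp downstream and inside the gene. For rpl-24.2 and rpl-24.1 the values were 95.11 and 40.89, and each replicate gave the same order, with 60.4 against 23.04 and 34.86 against 19.45. The tandem copies rpl-41.1 and rpl-41.2, whose coding sequences are 66 bp each, shared 1 IDR region of 65.19 on chromosome I. Its summit lay 274 bp upstream of rpl-41.2 and 828 bp downstream of the start of rpl-41.1, so it lies between them and is nearer to rpl-41.2. It had a signal of 51.13 in replicate 1 and no replicate 2 summit within 150 bp. The gene rpl-36.A, which shares its number with rpl-36, had a summit 976 bp downstream, inside nbs-1, with 22.10.

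Reads from near-identical copies could be placed at the wrong one. All stretches of 36 bases in the 151 bp summit window were unique in the genome for 61 of the 62 members with a pooled region. At the remaining gene, rpl-7A, 92.2% of the 116 stretches were unique.

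Most summits lay upstream, in the IDR list about as often as over all genes. Of the 25 IDR members 23, 92%, had their summit upstream, beside 90.1% of all genes with an IDR region. It lay 100 to 500 bp upstream in 19 of 25, 76%, beside 60.3%. Among upstream IDR summits the quartiles were −384 and −189 bp for members and −443 and −152 bp for all genes. In the pooled list 53 of 62 highest summits were upstream, 85.5% beside 66.7% of all genes with a pooled region. At 100 to 500 bp upstream stood 44 of 62, 71.0%, beside 36.6%. Among upstream pooled summits the median offset was −289 bp for members, with quartiles of −396 and −231 bp, and −322 bp for all genes, with quartiles of −594 and −169 bp. The medians were close and the members' spread was narrower. The median was −289 bp for the 27 large and −272 bp for the 26 small subunit genes.

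Of the 9 members with a downstream highest summit, 8 had another protein-coding start closer to it, and the exception was rpl-25.1. Several were at the edge of the 1000 bp reach: rps-5 at 989 bp, rpl-16 and rpl-10 at 985 bp and rpl-36.A at 976 bp downstream, with signals of 32.94, 25.66, 23.30 and 22.10. For rpl-16, rpl-10 and rpl-36.A this was the only pooled region within reach, so that their count rests on the reach, while rps-5 had a second pooled summit 244 bp from its 5′ end. On the upstream side rps-11 was the furthest, at 952 bp with 25.32. Just outside, the nearest pooled summit was 1250 bp from rpl-22 and 1277 bp from rpl-1.

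**Figure D3:**
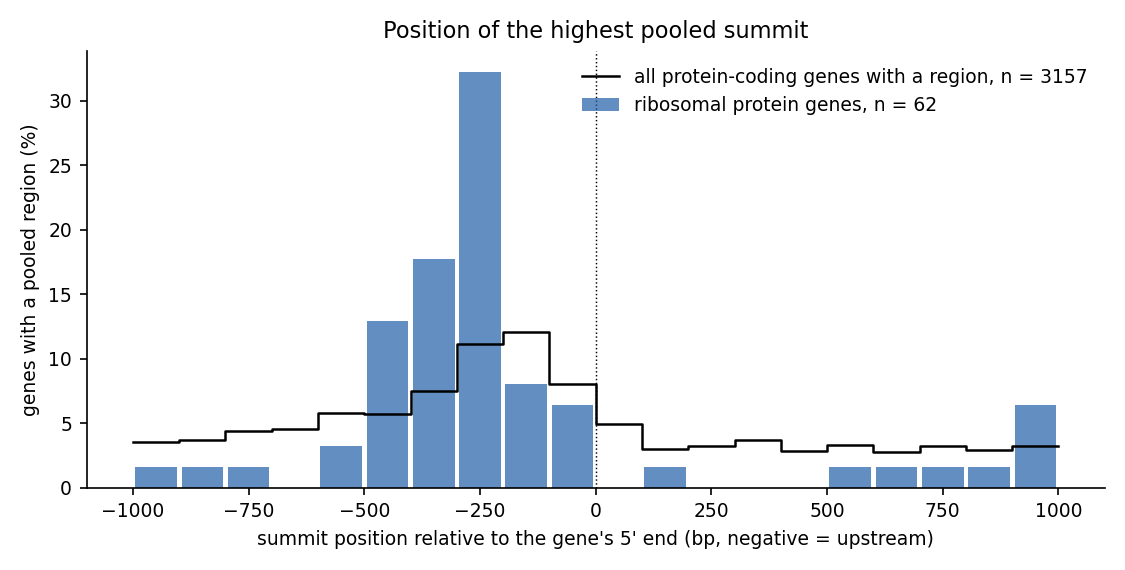
Position of the highest pooled summit relative to the gene's 5′ end in bp, negative upstream, in bins of 100 bp, as a percentage of the 62 members (bars) and of all 3157 protein-coding genes with a pooled region (line). The members' tallest bin, 200 to 300 bp upstream, holds 20 of 62, 32.3%, beside 11.2% of all genes.

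Many 5′ ends of these genes carried the letters of a splice acceptor. The 3 bases before the 5′ end read CAG, the end of a splice acceptor, in 64 of 81 members, 79.0%, beside 22.1% of all protein-coding genes. It did so in 18 of the 25 IDR members. Trans-splicing itself was not measured. Where the 5′ end is a splice acceptor, the distance of a summit from it is not that from the start of transcription, which the annotation does not give. The longer form TTTCAG was found on either strand of the 500 bp upstream of 70 of 81 members, 86.4%, beside 65.4%.

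Many of the promoters were shared. Another protein-coding start lay within 1000 bp of the summit at 21 of the 25 IDR members, 84% beside 65.3% of all genes with an IDR region, and at 50 of the 62 pooled members, 80.6% beside 36.7%. The member's own start was the closest to the summit in 14 of 25 IDR members, 56% beside 66.2%. Among the 37 members in the pooled list alone it was the closest in 19, 51.4%, beside 81.2% of all genes with a pooled region. For 11 IDR members the region could therefore as well be described as that of the neighbour, among them rpl-20, rps-12, rps-20 and rps-19. At rps-19 the signal was 66.02 and the summit lay 301 bp upstream, but 144 bp upstream of hsr-9. At rpl-27 the summit, with 61.99, lay 691 bp downstream and 87 bp upstream of egl-30, which encodes a G protein alpha subunit. At rps-18 the summit, with 46.39, lay inside sec-61.A, 48 bp past its start.

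Ribosomal protein genes often had a divergent neighbour, defined as a start on the other strand within 1000 bp upstream: 48 of 81, 59.3%, beside 17.7% of all protein-coding genes. Genes with such a neighbour were more often near a region in general, so shares are given within each class. Among members with a divergent start, 18 of 48 had an IDR region, 37.5%, beside 4.89% of all genes with one. Among members without, 7 of 33 had an IDR region, 21.2%, beside 1.03%. For the pooled list the shares were 42 of 48, 87.5%, beside 24.2%, and 20 of 33, 60.6%, beside 14%. Members stood above all genes in both classes.

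Where a summit lay between a member and a divergent gene that is no member, the partner's start was the closer in 8 of 16 pairs with an IDR region and in 9 of 16 with a pooled region alone. Members that paired with another member gave the regions of rps-30 with rpl-39, rps-10 with rpl-24.1, and rps-14 with rpl-36. The last of these had a signal of 31.60, rank 740, 231 bp upstream of rps-14 and 432 bp upstream of rpl-36. Each of these 3 divergent pairs joined a small with a large subunit gene. With rpl-41.1 and rpl-41.2, the members' highest regions were 24 distinct regions for 25 IDR members and 58 for 62 pooled members.

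By chromosome, IDR regions lay at 9 of 25 members on I, 3 of 10 on II, 5 of 18 on III, 7 of 18 on IV, 0 of 8 on V and 1 of 2 on X. Over all genes the IDR shares, in the same order, were 2.68, 2.23, 2.69, 1.62, 0.781 and 0.952%. In the pooled list the member counts were 18 of 25, 6 of 10, 17 of 18, 15 of 18, 4 of 8 and 2 of 2. Over all genes the pooled shares were 19.7, 13.8, 20.2, 16.4, 13.0 and 14.5%. The numbers on V and X are small.

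The replicates mostly placed the members' regions alike in position and in rank. Of the 25 IDR members 23, 92%, had a summit within 150 bp in both replicate lists, beside 342 of all 350 IDR regions, 97.7%. The other 2 members, rpl-41.1 and rpl-41.2, share 1 region. The member counts here are of genes and count that region for each of them, while the comparison is of regions. Each IDR member had the same rank in the IDR and pooled lists, down to rank 342 at rpl-33. Regions down to that rank were thus not picked singly for a match. The pooled list comes from the same libraries, so the matches are a description. The gap of matched summits from the pooled summit had a median of 13 bp in replicate 1 and 25 bp in replicate 2. Its maximum was 67 and 99 bp, and the matching rule limits it to 150 bp. In replicate 1, 22 of the 25 ranked among the 350 highest (88%, beside 83.7% of all IDR regions), in replicate 2, 18 of 25 (72%, beside 61.1%), and in both, 16 of 25 (64%, beside 51.1%). The ratio of replicate 1 to replicate 2 signal had a median of 1.73 over 23 members, from 0.942 (rps-19) to 5.89 (rpl-33), beside 1.93 over 342 IDR regions. The scale differs between the lists, so the median ratio itself says nothing of the replicates, while its range does.

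Ranks differed most at the lower end of the members. At rpl-33 the replicate 1 signal was 35.87, rank 208, and the replicate 2 signal was 6.086, rank 21120. At rpl-25.2 the ranks were 432 and 1841, and at rpl-43 260 and 1116. In the other direction rps-18 ranked 766 in replicate 1 and 290 in replicate 2. Of these, rpl-33 is the one whose ratio of replicate signals, 5.89, lies outside the quartiles of all IDR regions on the side of replicate 1, while the shared region of rpl-41.1 and rpl-41.2, of higher signal, had no replicate 2 summit within 150 bp. These 4 are the members with the lowest signals in the IDR list.

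**Figure D4:**
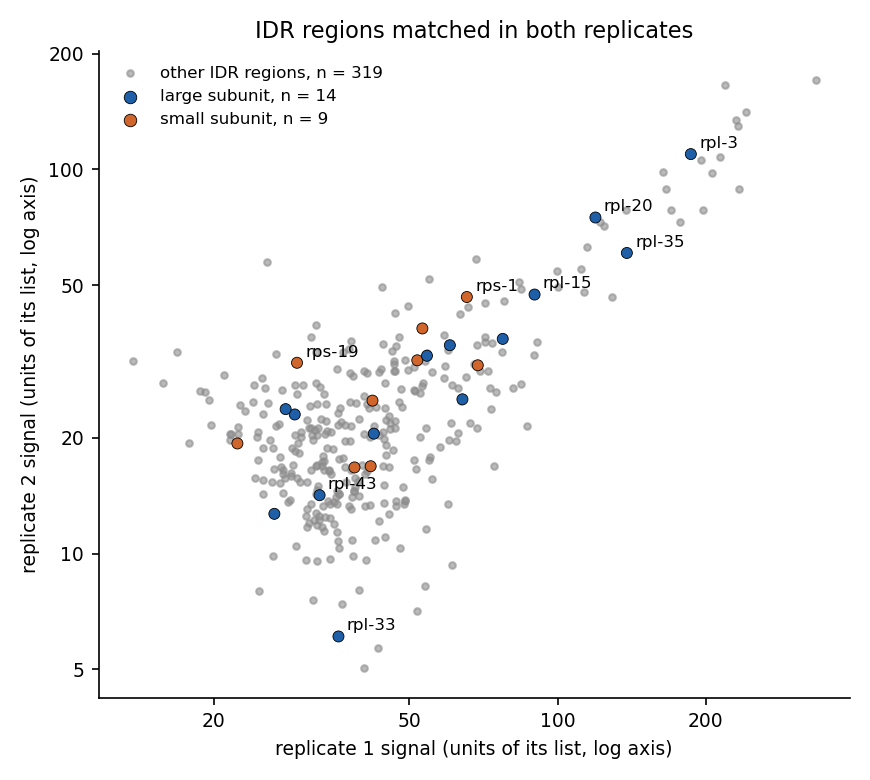
Replicate 1 signal against replicate 2 signal, each in units of its own list on log axes, at the 342 IDR regions with a summit within 150 bp in both replicate lists; coloured points are the highest regions of 14 large and 9 small subunit genes, and grey points are the other regions. The members run from rpl-3 at 186.4 and 109.6 to rpl-33 at 35.87 and 6.086.

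Of the 37 members in the pooled list alone, 24 had a summit within 150 bp in both replicate lists. Among the other 13, the best ranks in the 1 list that held the region were those of rpl-6, rpl-28, rpl-36.A and rpl-9. At rpl-6 the pooled signal was 39.81, 335 bp upstream, and replicate 2 gave 28.38, rank 95, while the nearest replicate 1 summit was 1971 bp from the 5′ end. At rpl-9 the pooled signal was 32.64 and replicate 1 gave 31.10, rank 301, while the nearest replicate 2 summit was 6809 bp away. At rpl-28 and rpl-36.A replicate 2 gave 20.89 and 19.16, ranks 207 and 299, with no replicate 1 summit within 150 bp of the pooled one.

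The sequences under the summits were searched on both strands for 7 motifs, each named here with its share, TTTCAG above included. No motif contains another. AGGTCA is the classic half-site of nuclear hormone receptors. It was held by the 500 bp upstream of 3 of 81 members, 3.70%, beside 12.8% of all protein-coding genes. It was in 0 of the 24 distinct 151 bp windows at member IDR summits, beside 4.29% of the 233 windows at IDR summits within reach of a start. The other motifs stood close to the share of all genes in the 500 bp upstream. GAGAGAG was held by 7.41% of members and 9.73% of genes, CCGCCC by 9.88% and 10.9%, and TGATAA by 46.9% and 43.7%. TATAAA was held by 54.3% and 54.0%, and CTGCGTC by 6.17% and 6.51%. At the summits CTGCGTC was in 1 of 24 member windows, 4.17%, beside 17.6%.

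The 3 hexamers in capitals in the printed windows can share at most 2 bases at an end. TACGGT was in 9 of the 24 member IDR windows, 37.5%. It was in 8 of 27 distinct windows at upstream summits of members in the pooled list alone, 29.6%, and in 30 of 209 windows at other IDR summits within reach of a start, 14.4%. At IDR summits out of reach of any start it was in 2 of 117, 1.71%. For GAGTGT the shares in these 4 sets, in the same order, were 37.5%, 25.9%, 14.4% and 16.2%. For GGAGCG they were 29.2%, 11.1%, 12.9% and 10.3%. The share of each of the 3 was larger at member IDR summits than at other IDR summits near a start, as their choice favours. Among the other IDR summits the first hexamer was thus seen mainly near starts, while the other 2 had similar shares near and away from them.

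Some hexamer of the 3 was in 15 of 24 member IDR windows, 62.5%, in 12 of 27, 44.4%, of the pooled-only windows, and in 35.9% of the other IDR windows near a start. Windows centred 289 bp upstream gave 5 of 19 members without a pooled region, 26.3%, and 11.6% of all protein-coding genes. TACGGT itself was in those same 5 of 19 windows, beside 4.63% of all genes, so it was also found at members with no region. The hexamers were picked for being frequent in the members' own windows, with both member sets in view, so their shares there are a description and carry no test. The windows also differ in base composition, with a median GC content of 45.0% at both kinds of IDR summit near a start, 40.4% in the 19 windows and 33.8% over all genes. What part GC content has in the shares was not tested.

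**Figure D5:**
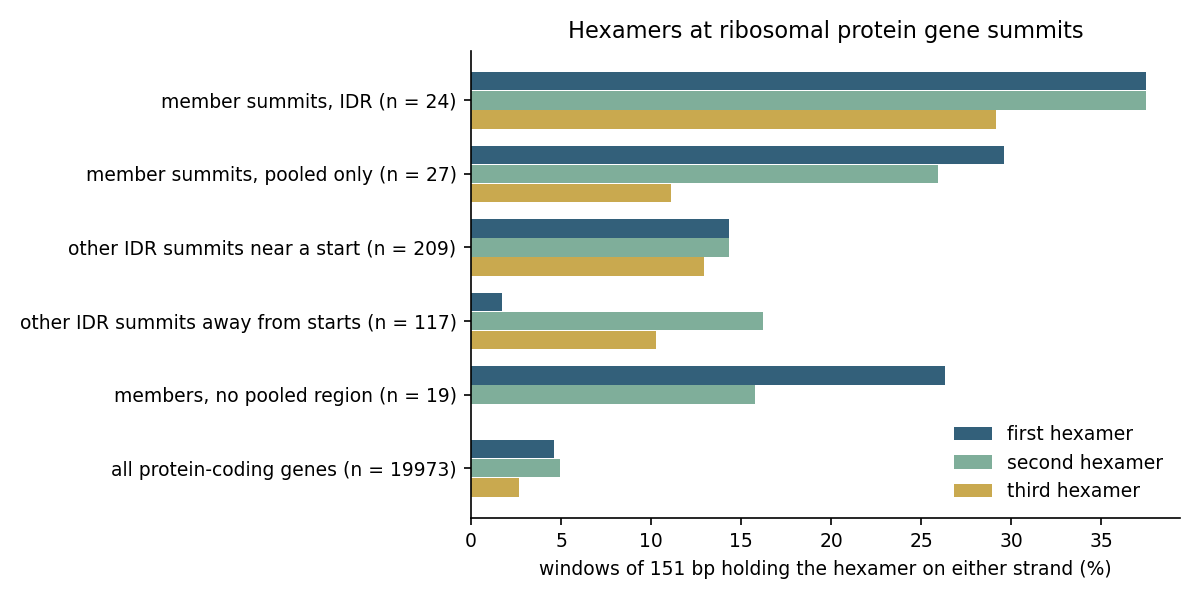
Percentage of 151 bp windows that hold each hexamer on either strand, for 6 sets of windows; the first hexamer is TACGGT, the second GAGTGT and the third GGAGCG. Member IDR summits hold 37.5%, 37.5% and 29.2%, and windows 289 bp upstream of all protein-coding genes hold 4.63%, 4.94% and 2.66%.

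Ribosomal proteins under other symbols were examined by name. The ubiquitin or ubiquitin-like fusions ubq-2 and ubl-1, for a large and a small subunit protein, both had an IDR region, with 52.01 at an offset of −484 bp and 46.50 at −206 bp. At the region of ubl-1 the replicate 1 signal was 39.5, and no replicate 2 summit lay within 150 bp. Its only replicate 2 region within reach, with 5.122, lay 301 bp downstream. The gene rack-1, for a scaffold protein of the small subunit, had a pooled region of 20.03, rank 4956, 781 bp downstream.

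Genes for ribosome assembly and growth control were less often near an IDR region. Of 61 symbols on the list 50 were found in the annotation, and 2 of them, 4%, had an IDR region, beside 1.72% of all genes. They were rbd-1, which acts in processing of ribosomal RNA, with 89.73 at −102 bp, and larp-1, an RNA-binding protein, with 65.46 at −683 bp. Another start was in reach at both, that of T23F6.3 at rbd-1 and that of wip-1 at larp-1. In the pooled list 18 of 50, 36%, had a region, beside 15.8%. The highest of these outside the IDR list was exos-4.1, an exosome subunit, with 40.77, followed by fib-1, the fibrillarin that methylates ribosomal RNA, with 37.72. Other starts were also in reach at exos-4.1 (dli-1 and tin-9.2) and fib-1 (mut-15). The gene lpd-7 was counted through the region it shares with rpl-9. No region of the pooled list lay near rsks-1, the S6 kinase, or let-363, the TOR kinase, while daf-15, the Raptor partner of TOR, had 36.53 at −74 bp. The shares of this list lie between those of ribosomal protein genes and those of all genes, a difference that was not tested. The IDR share rests on only 2 genes.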

How the data were processed

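Both libraries were used through 4 deposited region lists in ce11. Per the file descriptions, each library gave a list, set against a control, both libraries together gave another, and the IDR list was made from these. The sources used here name no region caller, IDR threshold, control, aligner or sequencing depth. The signal of each region is the authors' deposited value, on the scale of its list. Lists in ce10 were not used.

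Gene models came from Ensembl release 115 of WBcel235, the same assembly as ce11, and sequence from the RefSeq copy of that assembly. Summits were assigned to every protein-coding 5′ end within 1000 bp. Regions were ranked by signal, and matched between lists at summits within 150 bp. Shares have exact 95% binomial intervals, and no test was made, since there is 1 group. Assignment was checked on simulated data. Python 3.11.15, NumPy 2.4.6, pandas 2.3.3, SciPy 1.17.1 and matplotlib 3.10.9 were used.

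The members, gene lists and motifs were chosen with earlier results of these data known. Genes were named by rule: the 10 members highest in the IDR list and the 5 highest in the pooled list alone. Also named were shared regions and their partners, members at the reach's edge or with no region, subunit landmarks and members paired by symbol. The other genes named were chosen after their values were seen.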

Additional observations from a re-analysis of the deposited data

How the results depend on the processing

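No share reversed its standing against all genes. The IDR share of 30.86% fell to 17.28% (all genes 1.14%) when each summit counted only for the closest start, and to 20.99% (0.886%) with the 50% of regions of highest signal. The pooled share of 76.54% was 62.96% (10.1%) within 500 bp, 41.98% (13%) for the closest start only and 58.02% (9.14%) for regions matched in each replicate list. With as many of the highest regions of a single replicate list it was 64.2% without replicate 1 and 71.6% without replicate 2 (all genes 15 and 15.7%), and the cause was not tested. The IDR share from a single replicate was 28.4 to 29.63%. For the closest start only, the small subunit share of 29.03% was 12.9%, and the large subunit share of 32% was 20%. The closest start, the shorter reach, the 50% and the matched regions all let fewer regions or genes count. The median IDR signal of 67.44 was 29.65 and 51.86 in single replicate lists, on their own scales. The large subunit share, the median offset (-302 to -253 bp) and the 16 members in both replicates (15 to 16) moved by less than their intervals or spread. No paired analysis was possible because both libraries belong to 1 group. Depth, unknown here, limits what the absence of a region can show.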
